A study of Mus musculus with 25 samples.

Results

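Interferon-gamma receptor signalling and the ligands of PD-1 were followed through 8 genes of the 19762 in each deposited count table. They were taken by symbol: Ifngr1 and Ifngr2, the chains of the interferon-gamma receptor; Jak1 and Jak2, its kinases; Socs1, its feedback inhibitor; Cd274 and Pdcd1lg2, which encode the PD-1 ligands PD-L1 and PD-L2; and Havcr2, which encodes the inhibitory receptor TIM-3. All mice were 5XFAD, a transgenic model of Alzheimer's disease, in every group, controls included, and were perfused with PBS before tissue was taken. Whole choroid plexus, the source of cerebrospinal fluid in the ventricles, came from mice given anti-PD-1 (n = 5), given IgG as a control antibody (n = 5) or left untreated (n = 4). Myeloid cells were sorted from brain after anti-PD-1 as CD11b+ CD45-low cells, the gate named for microglia (D7, n = 3; D14, n = 3), and as CD11b+ CD45-high cells, the gate named for monocyte-derived macrophages (D7, n = 3; D14, n = 2). The sorted cells have no IgG or untreated group, so they are compared between gates and between D7 and D14. What D7 and D14 count from is not in the labels, nor are the age of the mice or the animal behind each sorted library, so p-values there measure the spread between libraries, which may be technical.

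Interferon-gamma binds a receptor built from both chains. JAK1 and JAK2 on the receptor then start a signal that turns on target genes, among them the gene for PD-L1 and the gene for SOCS1, which in turn inhibits the kinases. PD-L1 and PD-L2 on myeloid and tissue cells engage PD-1 on T cells and restrain them, and TIM-3, first known from T cells, is also made by microglia and dendritic cells.

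Choroid plexus libraries held 931461 to 1840072 counts and sorted libraries 343439 to 974777. Levels are CPM, counts scaled to a common library size with TMM factors. A count of 0 allows up to 3 counts. Over the raw library totals, without TMM factors, that is 1.63 to 3.22 CPM for choroid plexus and 3.08 to 8.74 CPM for sorted libraries. These limits are therefore only roughly on the scale of the levels. The tables were scaled separately, so levels set side by side across tissues are approximate. In the sorted libraries 8 microglia markers summed to 7213 to 10530 CPM in the CD45low gate and to 382 to 3117 CPM in the CD45high gate. The CD45high gate, labelled for macrophages, also held 10 neutrophil markers at a sum of 11400 to 19920 CPM, 9 monocyte markers at 5882 to 7588 CPM, and 19 T and NK cell markers at 215 to 524 CPM. In the CD45low gate those sums were 725 to 4345, 50.1 to 372 and 17.6 to 46.3 CPM. The 9 macrophage markers summed to 2910 to 5600 CPM in the CD45high gate and to 5357 to 8609 CPM in the CD45low gate. Of these 9, 0 were called higher in CD45high at either time, and 6 were called lower at D7 and 2 at D14. The CD45high library D7 replicate 3 stood apart with the lowest microglia sum, 382 CPM. In bulk libraries fewer cells of a type and less RNA per cell cannot be told apart.

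Promoter sequences of all 8 genes were matched by symbol in RefSeq (build GRCm38.p6) to show which carry the letters of interferon response elements. The window spans 250 bases before to 50 bases after the start of the gene, and both strands were read. The gamma-activated sequence TTCNNNGAA, an element of interferon-gamma target genes, was in 0 of the 8 windows and in 8.47% of 27025 mouse promoters. The interferon-stimulated response element, 2 GAAA tetramers with 2 bases of any kind between them, bound by interferon regulatory factors, was found only in Socs1 among the 8 and in 3.49% of all promoters. Its matches there overlap, beginning 83 and 77 bases before the start. The 250 bases before the start of Socs1 (chr16:10785537-10785786, minus strand) are shown with both matches in capitals, and those of Cd274 (chr19:29367188-29367437, plus strand), the PD-L1 gene, are shown beside them for comparison and have no match.
Socs1: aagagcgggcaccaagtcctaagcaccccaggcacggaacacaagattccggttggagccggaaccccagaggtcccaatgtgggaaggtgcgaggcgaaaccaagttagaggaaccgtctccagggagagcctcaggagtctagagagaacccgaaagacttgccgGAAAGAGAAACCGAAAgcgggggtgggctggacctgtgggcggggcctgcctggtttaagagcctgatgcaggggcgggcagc
Cd274: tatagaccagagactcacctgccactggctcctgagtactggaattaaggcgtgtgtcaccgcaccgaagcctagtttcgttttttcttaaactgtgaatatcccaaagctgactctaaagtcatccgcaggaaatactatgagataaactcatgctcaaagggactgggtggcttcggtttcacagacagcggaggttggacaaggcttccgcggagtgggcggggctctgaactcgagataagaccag
A match is a run of letters and not a bound site, and no match says only that these letters are not in the window. In the RefSeq gene order Cd274 and Pdcd1lg2 are neighbours on chromosome 19, with Jak2 close by on the same chromosome. Ifngr2 lies next to Ifnar1 and Il10rb, which encode chains of other cytokine receptors, on chromosome 16. Ifngr1 lies next to Il22ra2 and Il20ra on chromosome 10.

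The sorted gates were compared to show how these genes differ between the CD45high and CD45low myeloid cells of treated mice. Havcr2 was several-fold lower in the CD45high gate at both times. Transcripts of both kinases were higher there, Jak1 at both times and Jak2 past the threshold at D14, while the receptor chain Ifngr1 was lower at D7. The gates overlapped for the partner chain Ifngr2, Cd274 and Socs1 were low, and Pdcd1lg2 was almost undetected.

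Ifngr1 encodes the ligand-binding chain of the receptor. Its levels in the CD45low libraries were 425, 369 and 437 CPM at D7 and 444, 456 and 436 CPM at D14. In the CD45high libraries they were 209, 288 and 224 CPM at D7 and 401 and 316 CPM at D14. Every CD45high library lay below every CD45low library at D7, and the same held at D14, where the upper CD45high library came close. The log2 fold change of CD45high against CD45low was -0.77 ± 0.188 (SE) at D7 (edgeR quasi-likelihood test, adjusted p = 0.00252), and Ifngr1 was called there in each of 11 fits that left out 1 library. At D14 it was -0.31 ± 0.202 (edgeR, adjusted p = 0.248). The difference of the gate effects, D14 minus D7, was 0.46 ± 0.274 (edgeR, adjusted p = 0.856), so a change of the gate effect between the times was not shown.

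Ifngr2 encodes the chain that completes the signalling receptor. The CD45low libraries were at 277, 326 and 418 CPM at D7 and 382, 391 and 403 CPM at D14, and the CD45high libraries at 388, 389 and 343 CPM and at 382 and 295 CPM. The ranges of the gates overlapped at both times. Its log2 fold change was 0.14 at D7 (95% interval -0.26 to 0.54; edgeR, adjusted p = 0.592) and -0.21 at D14 (-0.65 to 0.23; edgeR, adjusted p = 0.474).

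The ratio of Ifngr1 to Ifngr2 counts within a library does not depend on its scaling. It was 1.54, 1.13 and 1.04 in CD45low D7 and 1.16, 1.17 and 1.08 in CD45low D14. In the CD45high gate it was 0.54, 0.74 and 0.65 at D7 and 1.05 and 1.07 at D14. The 3 CD45high D7 libraries were thus the only ones of all 25 below 1, the choroid plexus lying between 1.09 and 2.67. On reads recovered from the scaled table, where Ifngr2 has 1.15 times as many reads as counts in the sorted cells, the CD45high D7 ratios were 0.50 to 0.62, those of CD45high D14 0.92 to 0.94 and those of CD45low 0.91 to 1.36, so on that scale libraries of other groups also fell below 1.

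**Figure D1:**
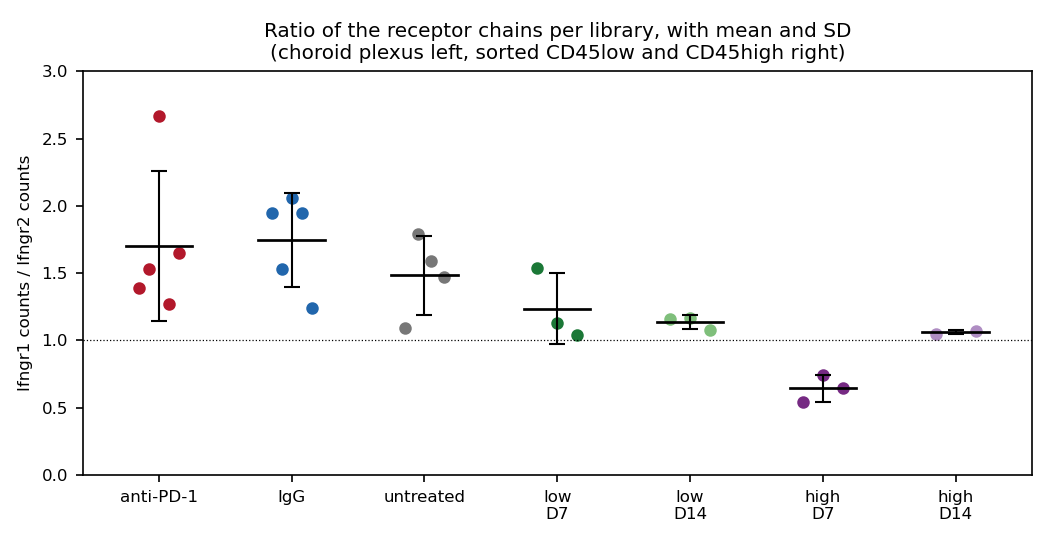
Ratio of Ifngr1 to Ifngr2 counts (vertical axis, no unit) in each library (points) of the 3 choroid plexus groups and the 4 sorted groups, with the mean and SD as bars and a dotted line at 1. The CD45high D7 libraries lie at 0.54 to 0.74, below the dotted line, and the CD45high D14 libraries at 1.05 and 1.07.

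Jak1 encodes the kinase that sits on the Ifngr1 chain and serves many other cytokine receptors. CD45low libraries were at 321, 283 and 352 CPM at D7 and at 271, 293 and 371 CPM at D14, and CD45high libraries at 404, 496 and 517 CPM and at 478 and 482 CPM. All CD45high libraries lay above all CD45low libraries. Its log2 fold change was 0.58 ± 0.186 at D7 (edgeR, adjusted p = 0.0169) and 0.62 ± 0.202 at D14 (edgeR, adjusted p = 0.021). These calls rest on few libraries: the D7 call ended without CD45low D7 replicate 2 (log2 fold change 0.51; edgeR, adjusted p = 0.0723). The D14 call ended without CD45low D14 replicate 1 (edgeR, adjusted p = 0.0806) or 2 (0.0683), and without CD45high D14 replicate 1 (0.0936) or 2 (0.107), with log2 fold changes of 0.53 to 0.63.

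Jak2 encodes the kinase on the Ifngr2 chain. At D7 the CD45low libraries were at 59.9, 75.2 and 57.4 CPM and the CD45high libraries at 89.5, 71.3 and 130 CPM. At D14 the values were 52.3, 69.5 and 55.9 CPM against 147 and 133 CPM. The gates overlapped at D7 through CD45high replicate 2 and were separate at D14. The log2 fold change was 0.60 ± 0.273 at D7 (edgeR, adjusted p = 0.0828) and 1.24 ± 0.282 at D14, or 2.35-fold (edgeR, adjusted p = 0.0018), and the D14 call was kept in all 11 fits that left out a library. Without CD45high D7 replicate 2 the D7 difference was 0.81 (edgeR, adjusted p = 0.0318). The difference of the gate effects, D14 minus D7, was 0.63 ± 0.393 (edgeR, adjusted p = 0.861).

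Socs1, which encodes the inhibitor of these kinases, was near the depth limit. It had 4 to 23 counts in the 11 sorted libraries. Its levels were 5.34, 16.0 and 7.41 CPM in CD45low D7, 14.9, 21.3 and 12.1 CPM in CD45low D14, 19.9, 11.9 and 11.4 CPM in CD45high D7 and 22.1 and 22.9 CPM in CD45high D14. The gates overlapped at D7, and at D14 both CD45high libraries lay just above the CD45low ones. The log2 fold changes of 0.51 at D7 (95% interval -0.79 to 1.81) and 0.47 at D14 (-0.75 to 1.69) were not called (edgeR, adjusted p = 0.538 and adjusted p = 0.57). With 1 library left out the D7 value ran from 0.21, without CD45low D7 replicate 1, to 1.18, without CD45low D7 replicate 2, and was not called in any of these fits. The Socs1 row of the scaled sorted table names another RefSeq transcript than the count table, and holds 124 reads in all against 111 counts.

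Cd274, the gene of PD-L1, had 6 to 28 counts per sorted library. CD45low libraries were at 12.8, 17.0 and 18.5 CPM at D7 and at 9.96, 14.8 and 26.1 CPM at D14. CD45high libraries were at 19.9, 41.6 and 16.0 CPM at D7 and at 40.4 and 41.6 CPM at D14. The gates overlapped at D7, and at D14 both CD45high libraries lay above the CD45low libraries. CD45high minus CD45low was 0.67 ± 0.515 at D7 (edgeR, adjusted p = 0.313) and 1.24 ± 0.503 at D14 on the log2 scale (95% interval 0.19 to 2.29; edgeR, adjusted p = 0.0608), neither of them called. Without CD45low D14 replicate 3 the D14 value was 1.70 (edgeR, adjusted p = 0.0266), and without CD45high D7 replicate 2, which is in neither D14 group, it was 1.25 (edgeR, adjusted p = 0.0476).

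Pdcd1lg2, the gene of PD-L2, had 1 count in CD45high D7 replicate 3, 1 count in CD45high D14 replicate 2 and 0 counts in the other 9 sorted libraries and in all 14 choroid plexus libraries. It did not pass the expression filter. With so few counts no fold is given. Exact two-sided permutation tests returned p = 1 at D7 and p = 0.8 at D14. With 1 count in 1 library of each comparison these tests could not reach a low p, so they decide nothing about a difference.

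Havcr2, which encodes TIM-3, differed most between the gates among the 7 tested genes. The CD45low libraries were at 471, 480 and 552 CPM at D7 and at 406, 470 and 471 CPM at D14. The CD45high libraries were at 99.5, 107 and 70.9 CPM at D7 and at 136 and 102 CPM at D14. No library of one gate came near the other gate. On the log2 scale the fold change was -2.45 ± 0.213 at D7, a level 0.183 times that of CD45low (edgeR, adjusted p = 2.65e-08), and -1.91 ± 0.231 at D14, or 0.266 times (edgeR, adjusted p = 2.09e-06). Both calls were kept in each of the 11 fits that left out 1 library. Havcr2 moved with the microglia markers, all 8 of which were called lower in the CD45high gate at both times, with medians of -2.51 at D7 and -1.94 at D14. The part of the remaining microglia transcripts in the CD45high level of Havcr2 was not tested. Without CD45high D7 replicate 3, the library with the lowest microglia sum, the D7 value was -2.25 (edgeR, adjusted p = 3.89e-07).

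At D7 edgeR called 3 of the 7 tested genes, against 42.8% of all 9058 genes tested, and at D14 3 of 7 against 35.5%. Groups that did not overlap made up 50.9% of all tested genes at D7 and 61.4% at D14, so a lack of overlap is common here and says little on its own. The share called among the 7 tested genes was thus close to the share among all genes.

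**Figure D2:**
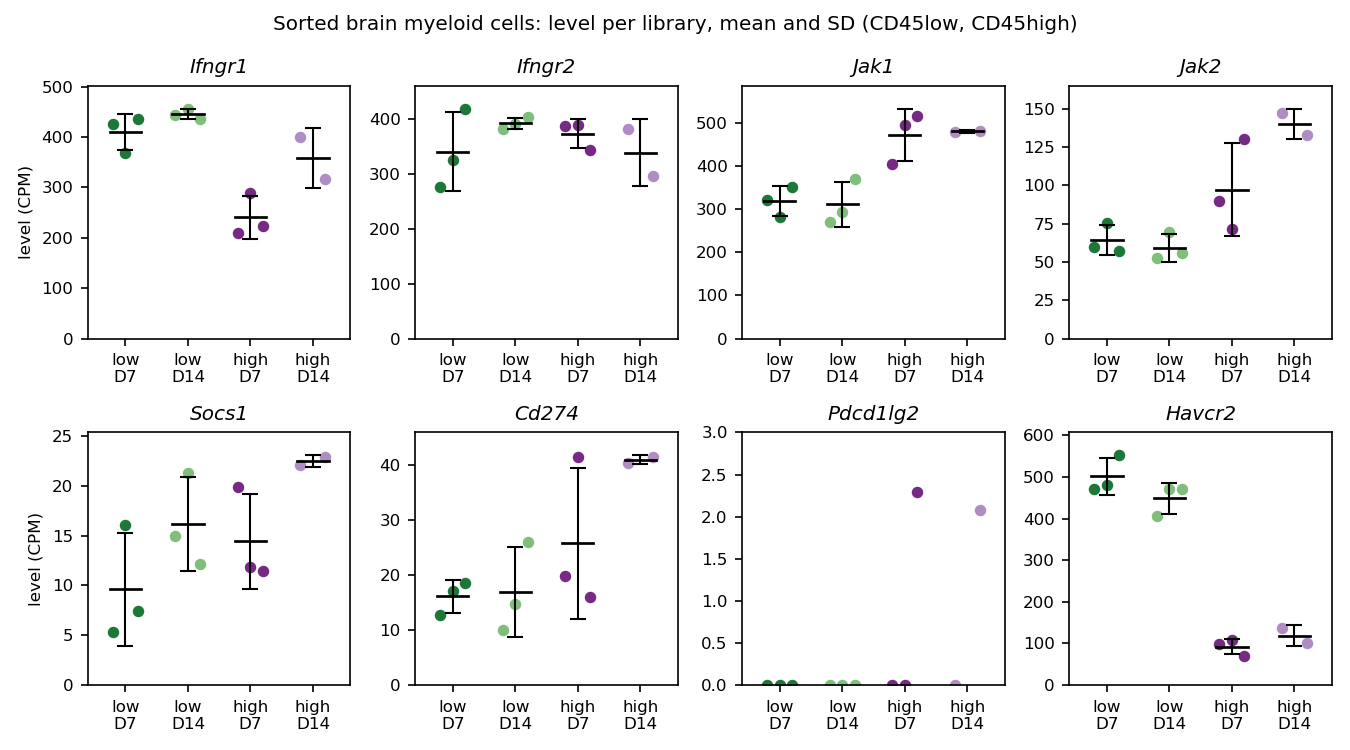
Level in CPM (vertical axis, from 0) of each of the 8 genes in each sorted library (points) of the CD45low and CD45high gates at D7 and D14, with the mean and SD (no bars for Pdcd1lg2, which has 2 counts in all). Havcr2 lies at 406 to 552 CPM in CD45low and 70.9 to 136 CPM in CD45high, and Jak1 is the reverse with all CD45high libraries above all CD45low libraries.

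**Figure D3:**
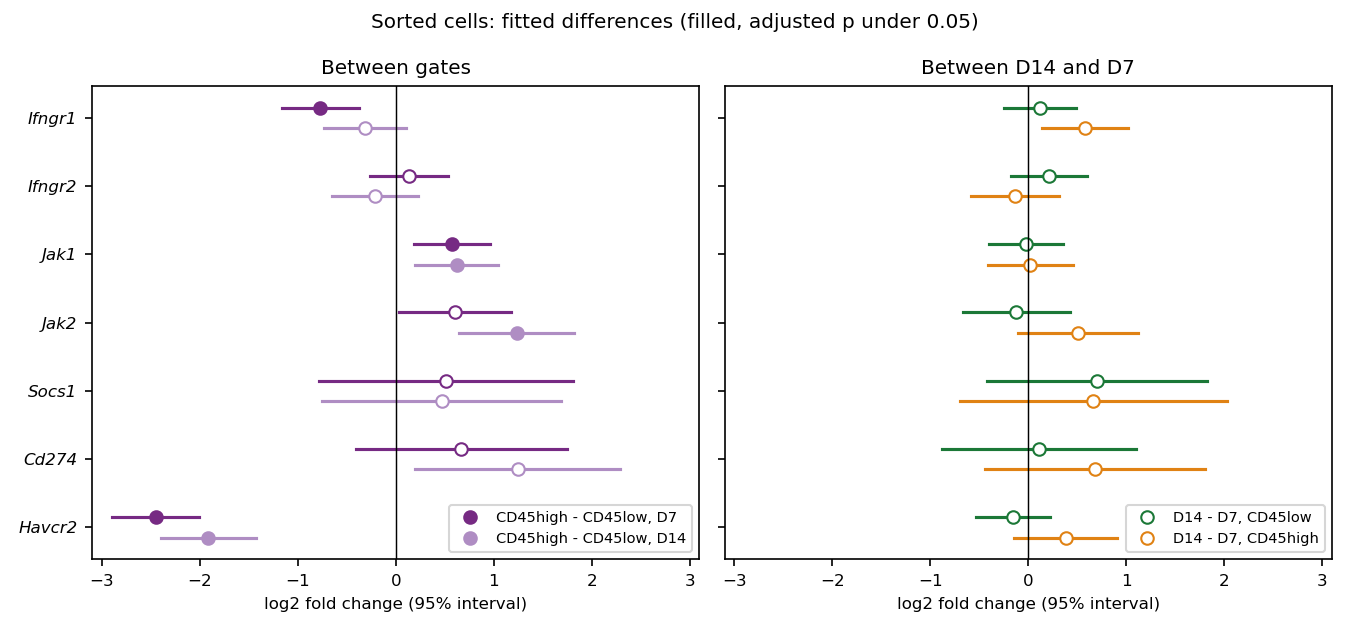
Fitted log2 fold changes (horizontal axis) with 95% intervals of the 7 tested genes between the gates at D7 and D14 (left) and between D14 and D7 within each gate (right), with filled points for an adjusted p under 0.05. Havcr2 at -2.45 and -1.91 is farthest from 0, and no point of the right panel is filled.

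D14 was then compared with D7 within each gate. None of the 7 tested genes passed the threshold in either gate, where edgeR called 0.0994% of all tested genes in CD45low and 0.011% in CD45high. The largest difference by p was Ifngr1 in the CD45high gate, from 240 ± 42.1 CPM (SD, n = 3) at D7 to 358 ± 59.8 CPM (n = 2) at D14. Both D14 libraries lay above the D7 libraries, as they also did for Jak2 and Socs1 and for 13.7% of all tested genes. The log2 fold change of Ifngr1 was 0.58 ± 0.209 (edgeR, unadjusted p = 0.0124, adjusted p = 0.353). In the same gate Jak2 had 0.51 (95% interval -0.10 to 1.12), Havcr2 0.38 (-0.14 to 0.91), Cd274 0.68 (-0.44 to 1.80), Socs1 0.66 (-0.70 to 2.03), Ifngr2 -0.14 (-0.59 to 0.32) and Jak1 0.02 (-0.41 to 0.45). The sum of neutrophil markers in that gate was 18600 to 19920 CPM at D7 and 11400 to 13240 CPM at D14, and its part in these values was not tested. In the CD45low gate Socs1 had 0.70 (-0.42 to 1.83), and the other 6 genes lay between -0.16 and 0.21.

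The order of the 4 sorted groups by mean level differed between the genes. For Ifngr1 it ran from CD45low D14 at 445 ± 10.1 CPM through CD45low D7 at 411 ± 36.3 and CD45high D14 at 358 ± 59.8 to CD45high D7 at 240 ± 42.1, and of these neighbours only the CD45high groups did not overlap. For Jak2 it ran from CD45high D14 at 140 ± 9.871 through CD45high D7 at 97.1 ± 30.3 to CD45low D7 at 64.2 ± 9.65 and CD45low D14 at 59.2 ± 9.10, of which only the first pair of neighbours did not overlap. For Havcr2 the CD45low groups at 501 ± 44.0 and 449 ± 37.5 CPM stood above the CD45high groups at 119 ± 24.1 (D14) and 92.4 ± 19.0 (D7), the CD45high groups overlapped, and the CD45low groups were only just apart. The ratio of Jak1 to Jak2 counts was 3.25 and 3.62 in the CD45high D14 libraries and 3.76 to 6.96 in the other 9 sorted libraries.

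**Figure D4:**
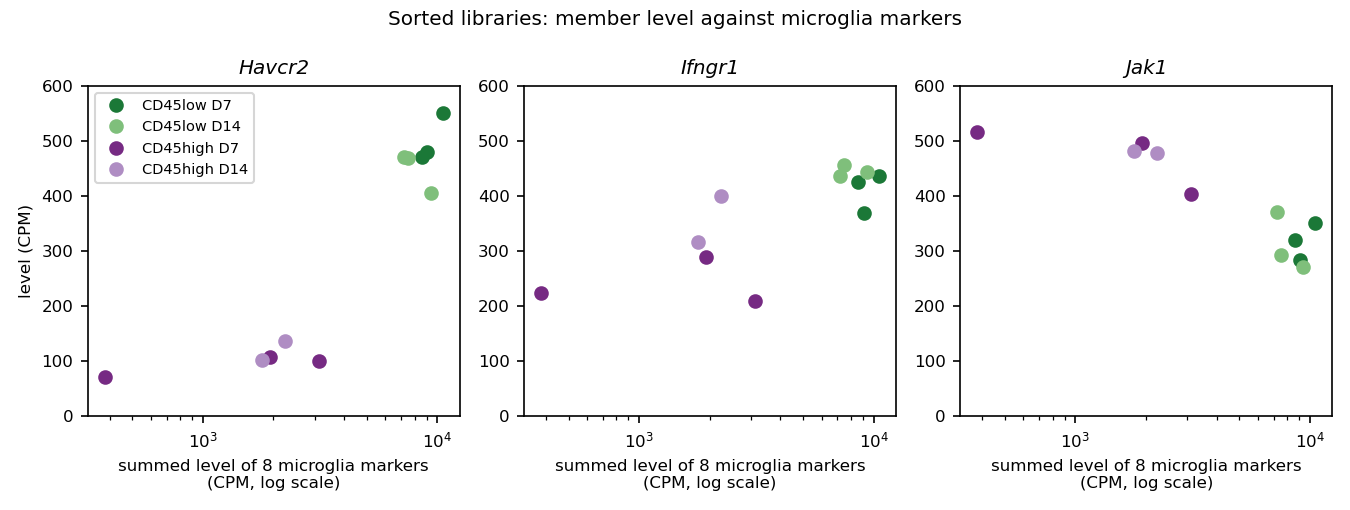
Level in CPM (vertical axis) of Havcr2, Ifngr1 and Jak1 in each of the 11 sorted libraries against the summed level of 8 microglia markers (horizontal axis, CPM, log scale). CD45low libraries sit at 7213 to 10530 CPM of markers. The CD45high D7 library at 382 CPM has the lowest Havcr2 level, 70.9 CPM, and the highest Jak1 level, 517 CPM. The CD45high library with the most markers, D7 replicate 1 at 3117 CPM, has the lowest Ifngr1 level, 209 CPM. Its Havcr2 level, 99.5 CPM, is below that of D14 replicate 1, 136 CPM, with 2239 CPM of markers.

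Genes whose profile over the 11 sorted libraries was most like each of the 7 tested genes were found by the root mean square difference of centred log2 CPM, a description with no test. For Havcr2, whose own SD was 1.17 log2 units, they were Lair1, an inhibitory receptor of leukocytes (0.15), Hps4 (0.18) and P2rx7, an ATP-gated channel (0.21). For Ifngr1 they were Poldip2 (0.14), Clk2 (0.16) and Emr1, which encodes F4/80 (0.17). For Ifngr2 they were Csk, a kinase that inhibits Src kinases (0.15), Zdhhc16 (0.16) and Tomm34 (0.16). For Jak1 they were Ndufa6 (0.12), Ywhaq (0.13) and Ptpre (0.13), and for Jak2 Gatad2a (0.20), Plcg2 (0.21) and Pabpc1 (0.22). Socs1 had Sav1 (0.22), Trim14 (0.23) and Acbd4 (0.25), and Cd274 had Snrnp25 (0.32), Snrpd3 (0.33) and Setd7 (0.34), where low counts add to every profile. The likest genes of Ifngr2 differ from it by nearly as much as its own SD of 0.19, so they reflect little beyond a flat profile.

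The cytokine itself and the receptor of the PD-1 ligands were near the detection limit. Ifng had 0 counts in the 6 CD45low libraries, 5 to 9 counts at D7 and 3 to 5 counts at D14 in the CD45high libraries, and 1 count in 1 anti-PD-1 choroid plexus library. The list of 19 T and NK cell markers holds Ifng itself. In the CD45low gate 7 of 19 were detected at each time, with Cd3d, Cd3e and Cd3g at 0 counts. In the CD45high gate 17 of 19 were detected. Their sum there was 215 to 501 CPM at D7 and 425 to 524 CPM at D14. Ifng counts did not rise with it. Pdcd1, the gene of PD-1, had 0 to 7 counts in CD45low D7, 6 to 15 in CD45low D14, 0 in all CD45high D7 libraries, 1 and 7 in CD45high D14, and at most 1 in any choroid plexus library.

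Other genes of the receptor pathway and its inhibitors, from a list of 23, were read from the same fit. Of 21 tested, 7 were called higher and 2 lower in the CD45high gate at D7, with a median log2 fold change of 0.43 against -0.08 over all genes, and at D14 6 were higher and 3 lower with a median of 0.19 against -0.04. Of all tested genes 42.8% were called at D7 and 35.5% at D14, so the share called in the list lay near that over all genes. Stat3, which carries signals of other cytokines, had log2 fold changes of 1.52 and 1.19 at D7 and D14. Irf1, a transcription factor induced by interferons, was at 122 and 147 CPM in CD45low and at 194 and 250 CPM in CD45high, at D7 and D14, and was called at both times, though not at D14 on recovered reads (edgeR, adjusted p = 0.0579). The phosphatase gene Ptpn6 had 1.02 at both times, and Usp18, which encodes an inhibitor of the type I interferon receptor, 2.03 and 2.58, with 1.304 at D7 on recovered reads. Socs3, another gene of the inhibitor family, fell by 0.95 at D7 and 1.03 at D14. Cish of that family was called at D14, with 13 counts in each CD45high library against 0 to 4 in CD45low. Of the remaining partners Tyk2 had -0.64 and -0.69, Jak3 -0.97 and -0.46, Ptpn11 0.57 and 0.40 and Ptpn2 -0.29 and 0.13 at D7 and D14, none called, though Tyk2 was called at D14 on recovered reads (edgeR, adjusted p = 0.0444).

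Of 35 genes induced by interferon-gamma, 30 were tested, of which 18 were called higher and 1 lower at D7 (median 0.93) and 24 higher and 1 lower at D14 (median 1.54), beside 42.8% and 35.5% called in either direction over all tested genes. Ifi47, an interferon-inducible GTPase, was at 8.68 ± 3.41 CPM in CD45low and 115 ± 46.1 CPM in CD45high at D7, a log2 fold change of 3.75, and had 4.49 at D14. Cd74, the invariant chain of MHC class II, had 2.06 and 2.48, and H2-Eb1 2.34 and 2.48. The gene called lower at D7 was Irf8, a factor of myeloid cells and microglia, at -1.47.

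Of 16 tested genes of other checkpoints, 4 were called higher and 5 lower at D7 and 5 of each at D14, with medians of -0.18 and -0.04, where 42.8% and 35.5% of all tested genes were called. Cd47, which encodes a signal against engulfment, had 1.57 and 1.64, and Ceacam1, listed as a ligand of TIM-3, 2.07 and 2.35, at D7 and D14. Cd86, which encodes a ligand of CD28, was at 202 ± 29.2 CPM in CD45low and 39.1 ± 16.9 CPM in CD45high at D7. Rgmb, whose product binds PD-L2, had 24 to 64 counts in the CD45low libraries and 0 to 8 in the CD45high libraries. Lgals9, which encodes the TIM-3 ligand galectin-9, was at 418 and 336 CPM in CD45low and 377 and 383 CPM in CD45high and was not called. Cd80, whose product binds PD-L1 as well as CD28, had 0 to 12 counts in any sorted library.

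Among 18 tested genes of other receptors that use JAK kinases, 4 were called higher and 5 lower at D7 and 4 of each at D14, with medians of -0.51 and -0.23, a share near the 42.8% and 35.5% of all tested genes. Il2rg, the common gamma chain, rose by 3.29 and 3.76, and Csf2ra and Csf2rb, the chains of the GM-CSF receptor, by 1.61 and 1.31 at D7. Il21r fell by 2.74 at D7 and 1.67 at D14. The lists were read beside the members and not tested as sets, and neutrophil, monocyte and T cell markers moved with the gate, so the part of cell makeup in these values was not tested.

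In the choroid plexus, anti-PD-1 was compared with IgG and with untreated mice, to show what blockade does to the receptor pathway in the tissue itself. None of the members passed the threshold in any of the 3 comparisons, where edgeR called 0% of 9513 tested genes at an adjusted p under 0.05 (442 genes had an unadjusted p under 0.05 against IgG, 368 against untreated, and 471 between IgG and untreated). Of the 8 genes 5 were tested, and Cd274, Havcr2 and Pdcd1lg2 did not pass the expression filter. DESeq2 called 1, 2 and 2 genes in these comparisons, and no member was among those called by either tool. The comparisons share libraries, so their values are given side by side.

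Ifngr1 had 23.4, 22.7, 24.2, 24.8 and 30.2 CPM with anti-PD-1, 41.1, 21.4, 26.4, 35.2 and 34.6 CPM with IgG and 25.3, 20.1, 28.5 and 24.99 CPM in untreated mice. The IgG libraries spread widest, and their range held that of the anti-PD-1 libraries. The log2 fold change was -0.34 ± 0.192 against IgG (95% interval -0.73 to 0.06; edgeR, unadjusted p = 0.092, adjusted p = 1), -0.03 against untreated (-0.49 to 0.42), and 0.30 for IgG against untreated (-0.15 to 0.75). Of 11 endothelial markers 0 were called and 0 had a positive estimate against IgG (median -0.39), and their sum was 174 to 374 CPM with anti-PD-1 and 247 to 433 CPM with IgG. Of 6 fibroblast markers 0 were called and 0 had a positive estimate (median -0.44). Their sum was 275 to 404 CPM with anti-PD-1 and 359 to 613 CPM with IgG. Macrophage markers went the other way, with all 5 tested positive against IgG (median 0.48) and 0 called. The part of any of these cell types in the value for Ifngr1 was not tested.

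Ifngr2 had 16.9, 14.9, 9.08, 19.5 and 18.3 CPM with anti-PD-1, 21.1, 13.98, 12.8, 18.01 and 27.9 CPM with IgG and 23.2, 11.3, 17.9 and 17.0 CPM untreated. The 3 groups overlapped throughout. Its log2 fold change was -0.27 ± 0.268 against IgG (95% interval -0.82 to 0.28) and -0.15 against untreated (-0.78 to 0.47).

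Jak1 had 91.9, 90.0, 103, 99.1 and 103 CPM with anti-PD-1, 113, 103, 98.6, 109 and 95.5 CPM with IgG and 98.1, 113, 113 and 101 CPM untreated. The ranges overlapped, and the interval of the difference from IgG, at -0.08 ± 0.111, ran from -0.31 to 0.15 on the log2 scale. Against untreated it was -0.15 (-0.40 to 0.11). Jak2 had 32.8, 23.6, 26.5, 19.5 and 20.7 CPM with anti-PD-1, 22.1, 25.2, 26.4, 25.4 and 16.2 CPM with IgG and 32.4, 29.8, 21.2 and 26.8 CPM untreated. These groups overlapped too, and the differences were 0.09 ± 0.202 against IgG (-0.33 to 0.50) and -0.07 against untreated (-0.52 to 0.39).

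Socs1 had 27.2, 13.1, 24.97, 21.8 and 16.7 CPM with anti-PD-1, 16.8, 11.2, 17.3, 13.9 and 21.8 CPM with IgG and 18.2, 33.0, 9.78 and 24.99 CPM untreated. The untreated mice spread widest and spanned both other groups. The log2 fold change against IgG was 0.33 ± 0.280 (95% interval -0.25 to 0.90) and against untreated 0.00 (-0.64 to 0.64). Between IgG and untreated the sign differed between M and F libraries, letters from the titles whose meaning is not given: -0.89 ± 0.407 in M libraries and 0.86 ± 0.496 in F libraries. The untreated group holds 1 F library, the lowest of all 14 at 9.78 CPM, so the F value rests on it and its SE assumes that it varies like the F libraries of the other groups. The difference between the letters was not tested in that comparison.

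Cd274 had 29 counts over the 5 anti-PD-1 libraries, 19 over the 5 IgG libraries and 14 over the 4 untreated libraries. That is 4.27 ± 1.61, 2.90 ± 1.78 and 3.16 ± 1.97 CPM (SD). Anti-PD-1 replicate 4 was highest at 7.08 CPM and IgG replicate 4 was at 0, and the groups overlapped. Havcr2 had 2.61 ± 1.49, 1.41 ± 1.02 and 2.08 ± 2.15 CPM, from 0 to 6 counts per library. Over the 6 exact two-sided permutation tests of these 2 genes the p ranged from 0.159, for Havcr2 against IgG, to 0.81, with Benjamini-Hochberg values of 0.794 to 0.81. The smallest p these tests allow is 0.00794 for 5 against 5 libraries and larger for 5 against 4. No difference in Cd274 or Havcr2 was detected.

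Within each letter, Ifngr1 against IgG was -0.42 ± 0.355 in M (2 against 2 libraries) and -0.29 ± 0.236 in F (3 against 3), and the F minus M difference was 0.14 ± 0.416 (edgeR, adjusted p = 0.999). The F minus M differences of the other tested genes were -0.21 for Ifngr2, 0.25 for Jak1, -0.26 for Jak2 and -0.28 for Socs1, none of them called (edgeR, each adjusted p = 0.999), as were 0% of all tested genes. Jak1 was -0.24 in M and 0.01 in F, and Jak2 0.25 and -0.01. Every M library of these groups has a title ending in 14 and every F library one ending in 6, 7 or 10, numbers whose meaning is not given, so the letter and the end number cannot be told apart here.

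**Figure D5:**
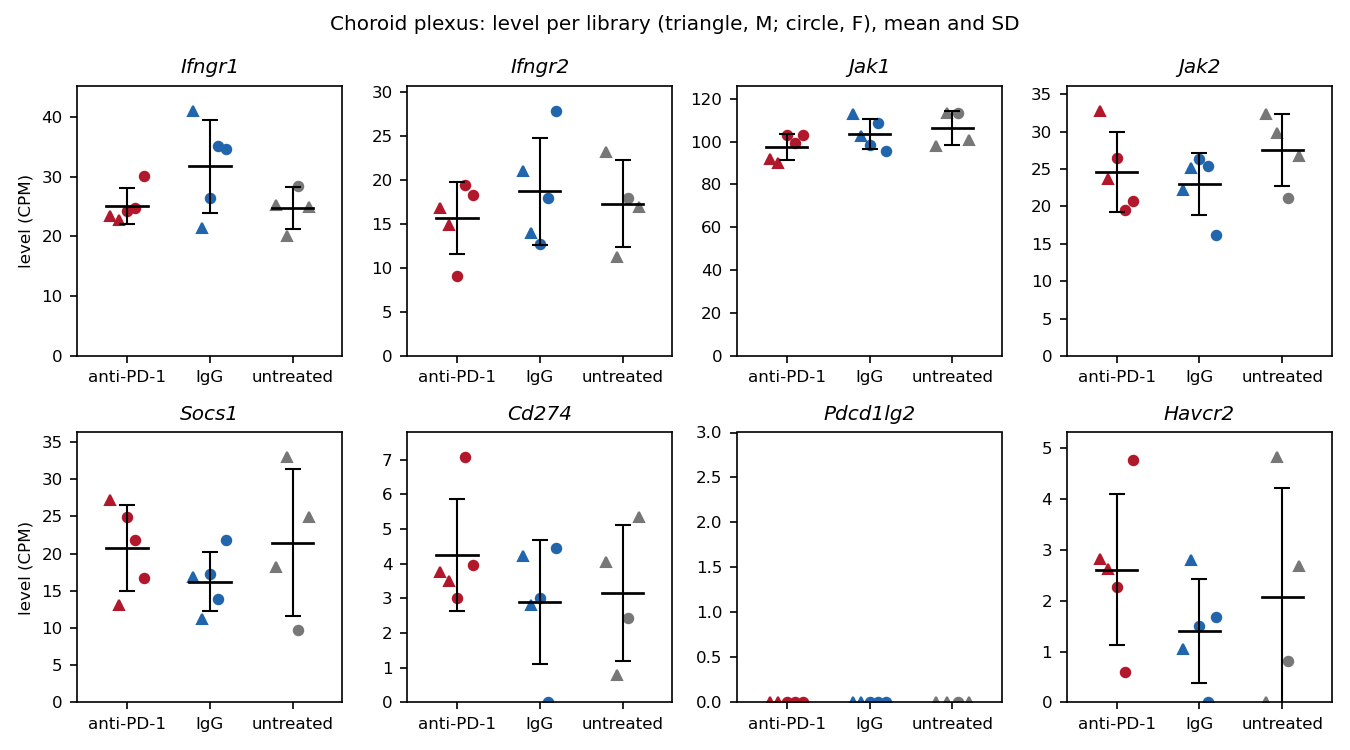
Level in CPM (vertical axis, from 0) of each of the 8 genes in each choroid plexus library, with triangles for M and circles for F libraries and bars for the mean and SD (none for Pdcd1lg2, at 0 counts throughout). The anti-PD-1, IgG and untreated libraries overlap in every panel, as for Ifngr1 at 22.7 to 30.2, 21.4 to 41.1 and 20.1 to 28.5 CPM.

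The lists in the choroid plexus held no called gene. Of 19 tested pathway genes 7 had a positive estimate against IgG, with a median of -0.06 on the log2 scale against 0.00 for all genes. Of 24 tested interferon-gamma targets 22 did, with a median of 0.41 against IgG and 0.19 against untreated, while IgG against untreated had 6 positive and a median of -0.15. Irf1 was at 24.5 ± 6.39, 22.9 ± 10.02 and 21.1 ± 7.87 CPM with anti-PD-1, IgG and no treatment. All 5 tested macrophage markers had positive estimates against IgG (median 0.48), 3 against untreated (median 0.08) and 0 for IgG against untreated (median -0.45). The full list of 9 summed to 60.0 to 292 CPM with anti-PD-1 and 77.4 to 151 CPM with IgG. The 292 CPM was anti-PD-1 replicate 5, with the next library of that group at 152 CPM. The part of macrophage markers in the target list was not tested.

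The choroid plexus and sorted levels can be set side by side only roughly, since each table was scaled alone. In the choroid plexus Ifngr1 lay at 20.1 to 41.1 CPM and in the sorted libraries at 209 to 456 CPM. Havcr2 lay at 0 to 4.83 CPM and at 70.9 to 552 CPM, and Cd274 at 0 to 7.08 CPM and at 9.96 to 41.6 CPM. Socs1 lay in one range in both, 9.78 to 33.0 CPM for choroid plexus libraries and 5.34 to 22.9 CPM for sorted ones.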

How the data were processed

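RNA was measured by 3′-end mRNA sequencing, in which reads lie near the end of a transcript, so counts are not scaled by transcript length. The submitters' processing notes name Bowtie2, HOMER and the build mm9; their versions and the annotation are not given in the sources. The authors deposited raw counts per gene for each tissue, and tables of scaled signal per gene, which came out as whole reads within 0.05 reads in 100% of values. Members were matched by symbol and carry 1 RefSeq transcript each in the count tables (Ifngr1 NM_010511, Ifngr2 NM_008338, Jak1 NM_146145, Jak2 NM_001048177, Socs1 NM_009896, Cd274 NM_021893, Pdcd1lg2 NM_021396, Havcr2 NM_134250).

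The main test on counts was edgeR's quasi-likelihood test (edgeR 4.0.16, R 4.3.3), with TMM scaling, filterByExpr by group and Benjamini-Hochberg adjustment over every tested gene at a threshold of 0.05. The 14 choroid plexus libraries were fitted with group and title letter, giving 10 residual degrees of freedom, and the 11 sorted libraries with 4 group means, giving 7. Genes below the filter had exact permutation tests (scipy 1.17.1). Alternatives were DESeq2 1.42.0, RLE factors, no filter, reads recovered from the scaled signal, fits without the letter or within it, replicate blocks and leaving out each library. Intervals and the limit of 3 counts cover counting error and the spread between libraries only, since no molecular identifiers are described.

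The members and lists were chosen with earlier results of these data known. All 8 members are named. Of each list, up to 5 called genes by lowest p, and fixed direct partners of the members, could be named. Libraries were not paired, since the labels do not say what a shared number marks and same-numbered libraries did not all correlate above 0.1 in any pair of groups. Some listed genes enter the counts of a list and are not reported here.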

Additional observations from a re-analysis of the deposited data

Results flagged for a closer look

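Of 21 groups of 4 or 5 libraries tested for an outlying library, 2 had one by Dixon's 95% criterion, which marks about 1 in 20 groups by chance. Ifngr1 in anti-PD-1 choroid plexus replicate 5 stood at 30.19 CPM, with the nearest library at 24.78 CPM. Cd274 in anti-PD-1 choroid plexus replicate 4 stood at 7.081 CPM, or 12 counts, with the nearest library at 3.972 CPM. Without anti-PD-1 replicate 5 Ifngr1 was called in none of the choroid plexus comparisons. Cd274 did not pass the expression filter in the choroid plexus, so its call could not be checked in this way.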

How the results depend on the processing

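Of 665 values of the tested genes with 1 library left out, 624 kept direction and side of the threshold, 33 changed sign, 5 lost a call and 3 gained one. Of 315 values under the other settings 298 kept both, 16 changed sign and 1 gained a call. Every value that changed sign was uncalled. Without the letter, anti-PD-1 against untreated was 0.024 for Ifngr1 and -0.053 for Socs1. For Socs1 it was -0.001 with DESeq2, -0.003 with RLE factors and -0.361 in M libraries. In F libraries Jak1 was 0.014 and Jak2 -0.012 against IgG, Jak2 was 0.060 for anti-PD-1 against untreated, and IgG against untreated was 0.072 for Jak2 and 0.864 for Socs1; in M libraries it was 0.034 for Jak1. D14 against D7 in CD45high was -0.021 for Jak1 with DESeq2 and -0.020 with RLE factors. The gate difference at D14 minus that at D7 was -0.002 for Jak1 with DESeq2 and 0.027 for Socs1 on recovered reads. The cause was not tested.

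Results that changed sign in some fit with a library left out are given with the range over all their left-out fits. For anti-PD-1 against untreated they ranged from -0.104 to 0.027 (Ifngr1), -0.184 to 0.012 (Jak2) and -0.439 to 0.262 (Socs1). For anti-PD-1 against IgG the range was -0.017 to 0.177 (Jak2), and for IgG against untreated -0.064 to 0.267 (Ifngr2). For the F minus M difference they ranged from -0.389 to 0.537 (Ifngr1), -0.515 to 0.172 (Ifngr2) and -0.724 to 0.328 (Socs1). For D14 against D7 they ranged from -0.334 to 0.358 (Cd274), -0.164 to 0.066 (Jak1) and -0.248 to 0.023 (Jak2) in CD45low, and from -0.330 to 0.036 (Ifngr2) and -0.076 to 0.085 (Jak1) in CD45high. For the gate difference at D14 minus D7 they ranged from -0.051 to 0.180 (Jak1) and -0.705 to 0.268 (Socs1).

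Genes called in all, in the order anti-PD-1 against IgG, anti-PD-1 against untreated, IgG against untreated, numbered 0, 0 and 0 with edgeR, 1, 2 and 2 with DESeq2, and 31, 13 and 27 without a filter; M libraries alone gave 1 in each comparison with anti-PD-1, and the fit without the letter 1 for anti-PD-1 against untreated. The F minus M difference had 3 without a filter. D14 against D7 had 9 in CD45low and 1 in CD45high, against 23 and 17 with DESeq2, 128 and 114 without a filter and 3 and 5 on recovered reads, and RLE factors gave 0 in CD45high. The gate difference at D14 minus D7 had 31 without a filter. With a library left out the ranges were 0 to 2 against IgG, 0 to 1 for IgG against untreated and for F minus M, 0 to 34 for CD45low, 0 to 13 for CD45high, 3311 to 3901 for the gates at D7 and 2178 to 3359 at D14. No scaling moved the median of all genes by more than 0.045 on the log2 scale.

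Replicate numbers were not taken as pairs. A replicate block gave 1, 2 and 2 called genes in the 3 choroid plexus comparisons, 15 in CD45low and 4 in CD45high for D14 against D7, and 1 for the gate difference at D14 minus D7. Under the block Ifngr2 for IgG against untreated was -0.124, and Cd274 between the gates at D14 was 1.72 (edgeR, adjusted p = 0.0493). Deviations of same-numbered libraries correlated at -0.219 to 0.074 in the choroid plexus and at -0.009 to 0.101 in the sorted cells. As a hint from the data, sorted libraries correlated best with their own number between the gates at D7 (0.014 to 0.057 against at most 0.010) and at D14 (0.045 and 0.061 against at most 0.017) and between D7 and D14 in CD45low (0.051 to 0.101 against at most 0.036), though not in CD45high (-0.009 and 0.013 against at most 0.023). CD45high D14 has 2 libraries, whose deviations from the group mean are equal and opposite. Own-number and other-number correlations with that group therefore mirror each other and add little to the hint. Depth limits Socs1, Cd274 and Pdcd1lg2 most, with 4 to 23, 6 to 28 and 0 to 1 counts per sorted library.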
